A study of Mus musculus with 8 samples.

Results

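Krt6a, Krt6b, Krt16 and Krt17 are the keratins that epidermal keratinocytes switch on after wounding or other stress. They were chosen by name, without regard to their values, from 3 tables of gene expression that compare JunB cKO with wild type mice. All 4 genes were found in all 3 tables, which list 26457 gene loci for the unperturbed, 47990 for the hair plucking and 46726 for the wound comparison. All mice were C57BL/6. JunB cKO mice carried JunB floxed alleles and Cre recombinase under the K14 promoter, so that deletion reaches K14-expressing keratinocytes and their progeny. The labels give the genotypes as JunB +/+ and JunB -/-.

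The unperturbed pair was labelled as keratinocytes released by trypsin, from mice that were 60 days old per the study's methods. The plucked pair was skin taken 4 days after depilation, at 58 days of age, and the wound pair was skin taken 30 days after wounding, with no age given in the sources used here. The methods describe 4 full-thickness wounds of 6 mm per mouse. RNA of 3 samples of a group was pooled per library, and the 8 libraries comprised 1 per genotype for the unperturbed and the plucked pair and 2 per genotype for wounds. The wound table, however, holds 1 value per genotype for both libraries together, so that no spread between animals or libraries can be given for any value here and no test of a genotype difference was possible.

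Keratins form the intermediate filaments of epithelial cells by pairing a type II with a type I chain. In resting interfollicular epidermis, basal cells contain Krt5 with Krt14 and suprabasal cells Krt1 with Krt10, whereas the type II keratins Krt6a and Krt6b and their type I partners Krt16 and Krt17 are largely restricted to the hair follicle, nail and other appendages. Injury, hyperproliferation and inflammation add the latter keratins to the interfollicular epidermis, which makes them customary markers of activated keratinocytes. JunB is a subunit of the transcription factor AP-1, which regulates many keratinocyte genes.

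The 2 type II genes are near-identical neighbours, which bears on every value given for them. On GRCm38, GENCODE release M21 places Krt6a (ENSMUSG00000058354.7) at chr15:101689910-101694307 and Krt6b (ENSMUSG00000023041.7) at chr15:101676023-101680287, both on the minus strand and both with 9 exons. The spliced transcripts measured 2278 and 2235 bases, and their coding sequences differed at 37 of 1659 aligned bases, an identity of 97.8%. Krt16 (ENSMUSG00000053797.10) lies at chr11:100246091-100248902 and Krt17 (ENSMUSG00000035557.9) at chr11:100256217-100261029, likewise on the minus strand, with 8 exons each. Krt16 was closer in coding sequence to Krt14 (86.7% identity) than to Krt17 (80.5%).

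Stretches of 75 bases, the length of the reads, show what a read had to tell the keratin 6 genes apart. Both stretches below are coding sequence from within 1 exon and are written 5′ to 3′ in the sense of the transcript, with bases that differ between the genes in capitals. In exon 1, at chr15:101694141-101694215 of Krt6a and chr15:101680116-101680190 of Krt6b, the genes were identical.
Krt6a exon 1: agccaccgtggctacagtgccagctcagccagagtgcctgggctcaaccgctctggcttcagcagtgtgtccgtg
Krt6b exon 1: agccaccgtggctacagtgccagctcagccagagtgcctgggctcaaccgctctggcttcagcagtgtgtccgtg
In exon 4, at chr15:101692484-101692558 of Krt6a and chr15:101678303-101678377 of Krt6b, 12 of 75 bases differed, the most of any such coding stretch.
Krt6a exon 4: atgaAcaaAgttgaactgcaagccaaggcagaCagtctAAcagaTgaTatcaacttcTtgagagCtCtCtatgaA
Krt6b exon 4: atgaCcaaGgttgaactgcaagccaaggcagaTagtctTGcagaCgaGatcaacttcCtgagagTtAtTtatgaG

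A read from the first stretch fits both genes equally, whereas a read from the second identifies its gene. Of the 2161 windows of 75 bases in the Krt6b transcript, 797 were identical to the aligned Krt6a sequence, 457 differed at 1 or 2 bases, 457 differed at 3 or more, and 450 crossed a gap of the alignment. Counted against all annotated transcripts, 42.3% of the windows of Krt6a and 39.6% of those of Krt6b occurred in another gene, in each case the other Krt6 gene, Krt5, Gm5414 or Gm5478. For Krt16 the share was 28.9%, with Krt14 and Gm11597, and Krt17 had 0 such windows among 1477. How reads that fit several genes were assigned is not given in the sources used here, which leaves more uncertainty in the levels of Krt6a, Krt6b and Krt16 than in that of Krt17.

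**Figure D1:**
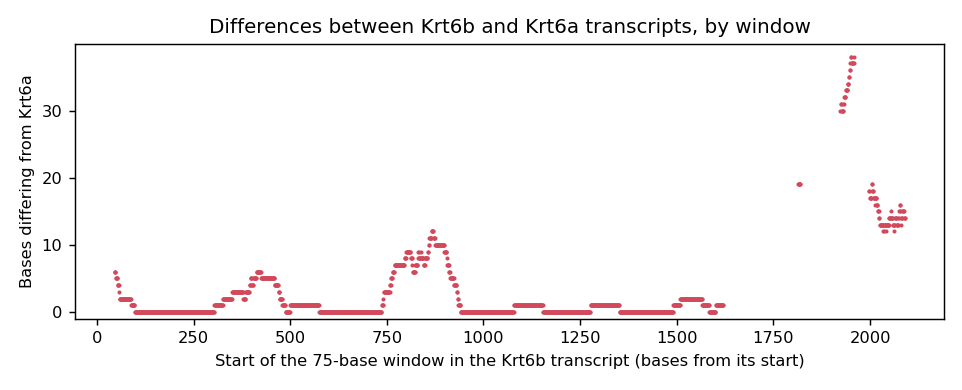
Each point is 1 window of 75 bases of the Krt6b transcript, placed by its first base (x axis, bases from the transcript's start), with the number of bases that differ from Krt6a (y axis). Windows that cross a gap of the alignment are left out. Of 2161 windows, 797 lie at 0, in runs along the coding sequence, and the differences gather near the middle and toward the end of the transcript.

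Levels are given in FPKM, fragments per kilobase of transcript scaled to the mapped reads of the library, which allows genes to be compared per length. Differences are given as log2((cKO + 1)/(WT + 1)), a scale that understates the change of genes at low FPKM, and a gene is counted as higher or lower in JunB cKO from a 2-fold difference on this scale. Folds quoted with an interval are plain ratios of FPKM, and the 95% intervals are exact intervals from the estimated number of reads behind each value. They cover counting error only, not the variation between mice. An FPKM of 1 in a transcript of 1 kb stood for about 16.9 reads in unperturbed wild type but 4.97 in unperturbed JunB cKO, for 16.3 and 12.9 in the plucked pair and for 43.3 and 39.6 in the wound pair.

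The deleted gene was lower in JunB cKO in each comparison. Junb read 267.8 FPKM in wild type against 31.4 in JunB cKO for unperturbed keratinocytes, 40.8 and 11.7 after hair plucking, and 33.4 and 15.4 in wounds. Markers of dermal fibroblasts, 6 genes including Col1a1 and Col3a1, summed to 13.7 and 12.5 FPKM in the unperturbed pair, but to 5109 and 1856 in the plucked pair, whose tissue label is likewise keratinocyte. The plucked samples thus held dermal RNA, as the biopsy in their titles implies, and the markers read higher in the wild type sample.

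In wild type mice, Krt17 was by far the most abundant of the 4 keratins and Krt6b the least in all 3 conditions. Krt17 stood at 755 FPKM in unperturbed keratinocytes, 1012 in plucked skin and 590.7 in wounds, and ranked between 81 and 126 among all loci of its column. Krt6a read 19.7, 225.9 and 101.4 FPKM, Krt16 read 62.0, 88.0 and 34.9, and Krt6b read 1.95, 7.90 and 3.44, respectively. Krt16 thus exceeded Krt6a in unperturbed keratinocytes, while Krt6a exceeded Krt16 in plucked and in wounded skin.

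Because the tables were normalised separately, the members were also set against the basal keratins of the same column, Krt5 for type II and Krt14 for type I. Krt6a amounted to 0.761% of Krt5 in unperturbed wild type keratinocytes, to 36.8% in plucked and to 28.0% in wounded wild type skin. Krt6b moved from 0.0751% to 1.29% and 0.953% of Krt5. Krt16 amounted to 5.12%, 3.60% and 5.02% of Krt14 and Krt17 to 62.3%, 41.4% and 85.1%, so that among wild type samples these ratios differed more between conditions for the type II than for the type I members. This contrast rests in part on the references, which were not stable themselves. In these wild type samples Krt5 read 2592, 614 and 362 FPKM and Krt14 read 1212, 2446 and 694. These samples differ in tissue, keratinocytes against whole skin, as well as in condition, which cannot be told apart.

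**Figure D2:**
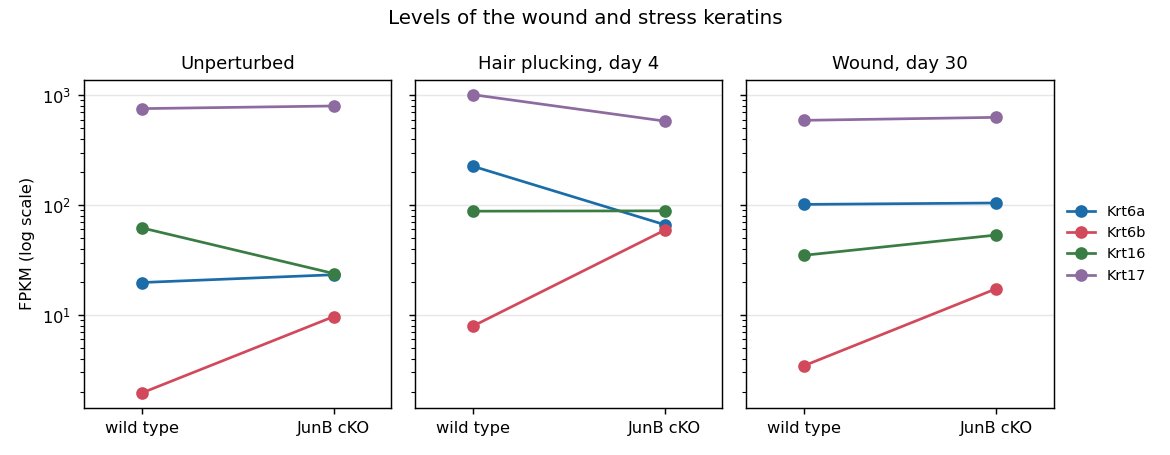
Level of each of the 4 keratins (y axis, FPKM on a log scale) in wild type and JunB cKO (x axis) for the unperturbed, plucked and wound tables, with 1 point per gene and genotype and lines joining the same gene. Krt6b climbs from wild type to JunB cKO in all 3 panels, from 1.95 to 9.65, from 7.90 to 59.2 and from 3.44 to 17.3, while Krt6a descends from 225.9 to 66.2 after hair plucking.

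Next, the genotypes were compared. In unperturbed keratinocytes 1 of the 4 keratins, Krt6b, was at least 2-fold higher in JunB cKO and 1, Krt16, at least 2-fold lower. Among the 15973 loci with 1 FPKM or more in one or both genotypes, 15.4% were higher and 1.42% lower by the same measure. This excess of higher loci rested on low values, since 104 loci were higher and 117 lower at a minimum of 10 FPKM, which Krt6b itself did not reach in this pair, and 940 were higher and 432 lower after subtraction of the median of sensory receptor genes. After hair plucking, Krt6b was higher and Krt6a lower, against 18.4% and 16.0% of 16932 loci. In wounds Krt6b alone was past the limit, where 5.68% of 17787 loci were higher and 5.19% lower. The median log2 ratio of the 4 keratins was 0.15, -0.39 and 0.34 in unperturbed, plucked and wounded samples, beside -0.03, 0.03 and 0.01 over all these loci.

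Krt6b, the less abundant of the type II genes, was the keratin with the same direction past 2-fold in every comparison. In unperturbed keratinocytes it read 1.95 FPKM in wild type against 9.65 in JunB cKO, a fold of 4.96 (95% counting interval 3.60 to 6.87). This value is the least certain of the 3, since it rests on about 67 and 98 reads. In the same pair the median of 1488 sensory receptor genes, which keratinocytes are not known to express, was 0 in wild type and 0.543 FPKM in JunB cKO. Subtraction of these medians left the log2 ratio of Krt6b at 1.78, compared with 1.85 as deposited.

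After hair plucking, Krt6b stood at 7.90 FPKM in wild type against 59.2 in JunB cKO, a fold of 7.49 (6.56 to 8.57) on about 262 and 1548 reads. In wounds it was 5.01-fold higher in JunB cKO (4.42 to 5.69), on about 304 and 1392 reads. Its rank among all loci moved accordingly, from 11022 to 5741 in unperturbed keratinocytes, from 8626 to 1829 in plucked skin and from 12299 to 5772 in wounds. The counting intervals of the unperturbed and the wound fold overlap, whereas that of the plucked fold lies above the one of wounds and overlaps the unperturbed one at its lower end. In relation to Krt5, Krt6b was 0.0751% in wild type against 0.359% in JunB cKO in the unperturbed pair, 1.29% and 7.01% after plucking, and 0.953% and 4.83% in wounds.

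Krt6a, by contrast, was lower in JunB cKO after hair plucking only. There it read 225.9 FPKM in wild type against 66.2 in JunB cKO, 3.41-fold more in wild type, and the log2 ratio was -1.76. The cKO-to-wild-type fold of 0.293 had a counting interval of 0.278 to 0.309. In unperturbed keratinocytes Krt6a read 19.7 and 23.2 FPKM, a fold of 1.18 (1.01 to 1.36), and in wounds 101.4 and 104.5, a fold of 1.03 on about 9123 and 8601 reads. Both are differences well within 2-fold, the wound value turned to -0.19 on the log2 scale relative to Krt5 and Krt14, and with 1 value per genotype they cannot be set against the variation between mice. Relative to Krt5, Krt6a went from 36.8% in plucked wild type to 7.84% in plucked JunB cKO skin, but stood at 28.0% and 29.2% in wounds.

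**Figure D3:**
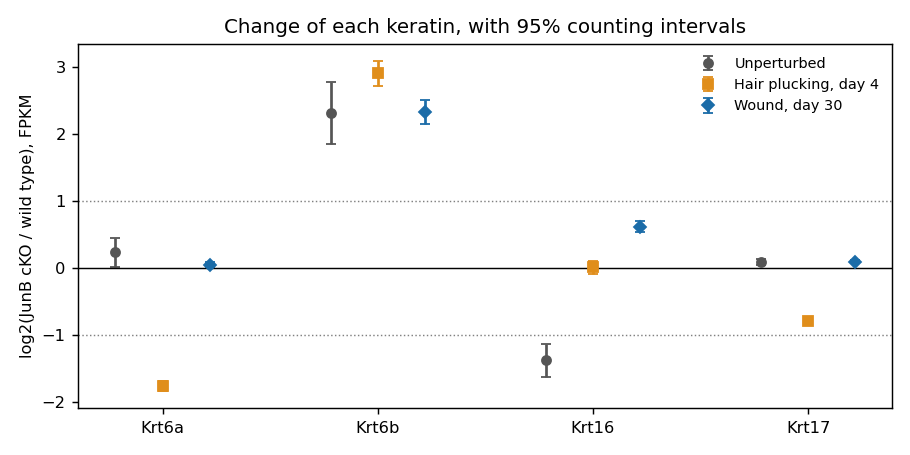
Log2 ratio of JunB cKO over wild type FPKM without a pseudocount (y axis) for each keratin (x axis) in unperturbed (circles), plucked (squares) and wounded (diamonds) samples. Bars are 95% counting intervals, which leave out the variation between mice, and dotted lines mark 2-fold. The 3 values of Krt6b lie between 2.31 and 2.91, whereas Krt6a after plucking and Krt16 in unperturbed keratinocytes lie below the lower line.

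Since Krt6a did not follow Krt6b, the makeup of the keratin 6 signal differed between the genotypes. Krt6b accounted for 8.98% of the summed FPKM of both genes in unperturbed wild type (95% counting interval 7.04 to 11.3) and for 29.4% in JunB cKO (24.6 to 34.6). In plucked skin its share was 3.38% (2.99 to 3.81) in wild type and 47.2% (45.5 to 48.9) in JunB cKO. In wounds it was 3.29% (2.94 to 3.68) and 14.2% (13.5 to 14.9). Expressed as a ratio, Krt6a outnumbered Krt6b 28.6 to 1 in plucked wild type skin and 1.12 to 1 in plucked JunB cKO skin. In every comparison the interval of the share in JunB cKO lay above that in wild type. These intervals cover neither the variation between mice nor the division of reads that fit both genes, so they give no test of a genotype difference.

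**Figure D4:**
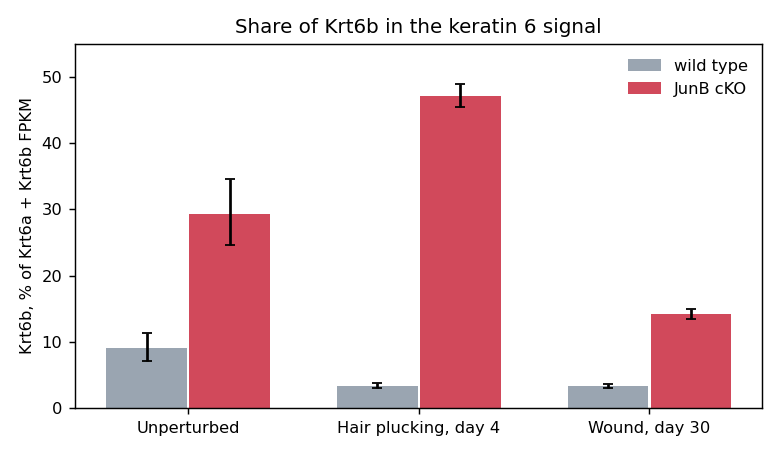
Share of Krt6b in the summed FPKM of Krt6a and Krt6b (y axis, percent) in wild type (grey) and JunB cKO (red) for the 3 tables, with 1 value per bar. Error bars are 95% counting intervals and cover neither the variation between mice nor the division of reads that fit both genes. The share is 3.38% in wild type against 47.2% in JunB cKO after plucking, and the step is smaller in wounds, from 3.29% to 14.2%.

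Added together, the type II pair gave a smaller and less uniform difference. The sum of Krt6a and Krt6b was 21.7 FPKM in wild type against 32.9 in JunB cKO for unperturbed keratinocytes (log2 ratio 0.58), 233.8 and 125.4 after plucking (-0.89), and 104.8 and 121.8 in wounds (0.21). The sum does not depend on how reads were divided between the 2 genes, apart from those shared with Krt5 and the 2 other gene models. None of the 3 sums reached 2-fold, and the plucked sum was lower in JunB cKO although Krt6b alone was higher. Whether the division of shared reads played a part in the values of the single genes was not tested.

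The type I partner Krt16, customarily examined together with Krt6a as a sign of hyperproliferative epidermis, differed in its own way. In unperturbed keratinocytes it read 62.0 FPKM in wild type against 23.8 in JunB cKO, which is 2.61-fold more in wild type and a log2 ratio of -1.34, on about 1430 and 162 reads. After plucking it read 88.0 and 88.6 FPKM, a fold of 1.01 with an interval of 0.942 to 1.08. In wounds it read 34.9 FPKM in wild type against 53.3 in JunB cKO, a fold of 1.53 (1.44 to 1.62) that did not reach the 2-fold limit. Krt16 was therefore at its lowest relative to wild type in the unperturbed keratinocytes, at 5.12% of Krt14 in wild type against 2.14% in JunB cKO. That pair differs from the other pairs in tissue as well as in injury, which cannot be told apart. The corresponding shares were 3.60% and 5.19% after plucking, where Krt14 itself was lower in JunB cKO (2446 against 1709 FPKM), and 5.02% and 5.51% in wounds.

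The sum of 6 sebocyte markers, among them Scd1 and Awat1, was 432 FPKM in wild type against 241 in JunB cKO for the unperturbed pair, 1123 and 779 for the plucked pair, and 469 and 1125 for wounds. Scd1 made up most of each sum, with 392 and 222, 826 and 592, and 390 and 1009 FPKM. Of the markers with 1 FPKM or more, 5 of 5 read lower in JunB cKO in unperturbed and in plucked samples. In wounds 6 of 6 read higher. The sum was thus also lower in plucked skin, where Krt16 was nearly equal. The part of sebocyte content in the level of Krt16 was not tested.

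Krt17, the type I keratin that is also constitutive in the outer root sheath, stayed within 2-fold in all 3 comparisons. Unperturbed keratinocytes read 755 FPKM in wild type against 798 in JunB cKO, and wounds 590.7 and 628.8, with folds of 1.06 (1.03 to 1.09) and 1.06 (1.05 to 1.08), the latter turning to a log2 ratio of -0.14 relative to Krt5 and Krt14. In plucked skin it read 1012 and 581 FPKM, that is 1.74-fold more in wild type with a log2 ratio of -0.80, short of the 2-fold limit. Since Krt17 shares no exact 75-base window with another annotated gene, these values are less subject to the ambiguity of the others. Windows that nearly match another gene were not counted for Krt17. As a percentage of Krt14, Krt17 was 62.3 and 71.7 in unperturbed, 41.4 and 34.0 in plucked and 85.1 and 65.0 in wounded wild type and JunB cKO samples.

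The balance between the members shifted with these differences. The ratio of Krt17 to Krt16 was 12.2 in unperturbed wild type and 33.5 in JunB cKO, 11.5 and 6.56 after plucking and 16.9 and 11.8 in wounds, so that the direction in the unperturbed pair was opposite to that in both skin pairs. The type II members together amounted to 2.65% and 4.00% of the type I members in unperturbed keratinocytes, 21.3% and 18.7% in plucked skin and 16.8% and 17.9% in wounds. Of the FPKM of 23 epithelial keratins, the 4 members held 5.59% and 5.51% in the unperturbed pair, 11.6% and 6.31% in the plucked pair, and 15.2% and 13.9% in the wound pair. The largest difference in this share, in plucked skin, came with lower Krt6a and Krt17.

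Set beside the basal and suprabasal keratins, Krt6b was past 2-fold where they were not. It was not alone among all keratins outside the follicle lists. The simple keratin Krt7 was also higher past 2-fold in unperturbed (0.598 FPKM in wild type, 3.475 in JunB cKO) and plucked samples (0.328 and 3.30), at low values. In wounds Krt7 read 1.73 and 2.59, within 2-fold. Krt18 was lower in plucked skin (1.75 and 0) and in wounds (5.9 and 2.38). None of the basal keratins Krt5, Krt14 and Krt15 and none of the suprabasal keratins with 1 FPKM or more was past 2-fold in any comparison. Krt1 and Krt10, the pair of differentiating keratinocytes, were higher in JunB cKO below this limit in each, with log2 ratios of 0.51 and 0.56 in unperturbed, 0.69 and 0.88 in plucked and 0.58 and 0.63 in wounded samples. The suprabasal list as a whole was divided. Differences of any size were upward for 3 and downward for 4 in unperturbed, 5 and 1 in plucked, and 3 and 3 in wounded samples. Krt77 read 3875 and 2570, 1908 and 2280, and 445 and 295 FPKM in wild type and JunB cKO. Krt5 read 2592 and 2690, 614 and 845, and 362 and 357 FPKM in wild type and JunB cKO in the same order.

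Keratins of the hair follicle differed strongly after plucking, where Krt6a and Krt6b also differed. Of 8 keratins of the companion layer and inner root sheath, 7 were at least 2-fold higher in plucked JunB cKO skin and 0 lower, with a median log2 ratio of 2.94 beside 0.03 over all loci, and of 11 hair shaft keratins 9 were higher and 2 lower, with a median of 2.52. The exception in the first list was Krt75, a type II keratin of the companion layer, in which Krt6a is also known to be expressed, with 9.02 and 12.6 FPKM. Over all loci of the plucked pair, 18.4% were higher and 16.0% lower. The hair shaft values were low, with sums of 28.0 and 113.5 FPKM and 3 genes at 0 in wild type. The lower ones were Krt36 (10.2 and 0) and Krt84 (10.35 and 0.0655). In wounds, the same lists had medians of -0.59 and -0.64, with 0 higher and 2 and 1 lower, respectively, while Krt6b was 5.01-fold higher. Over all loci of the wound pair, 5.68% were higher and 5.19% lower. In unperturbed keratinocytes 0 of 6 and 0 of 5 measured at 1 FPKM or more were past the limit, where 15.4% of all loci were higher and 1.42% lower.

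**Figure D5:**
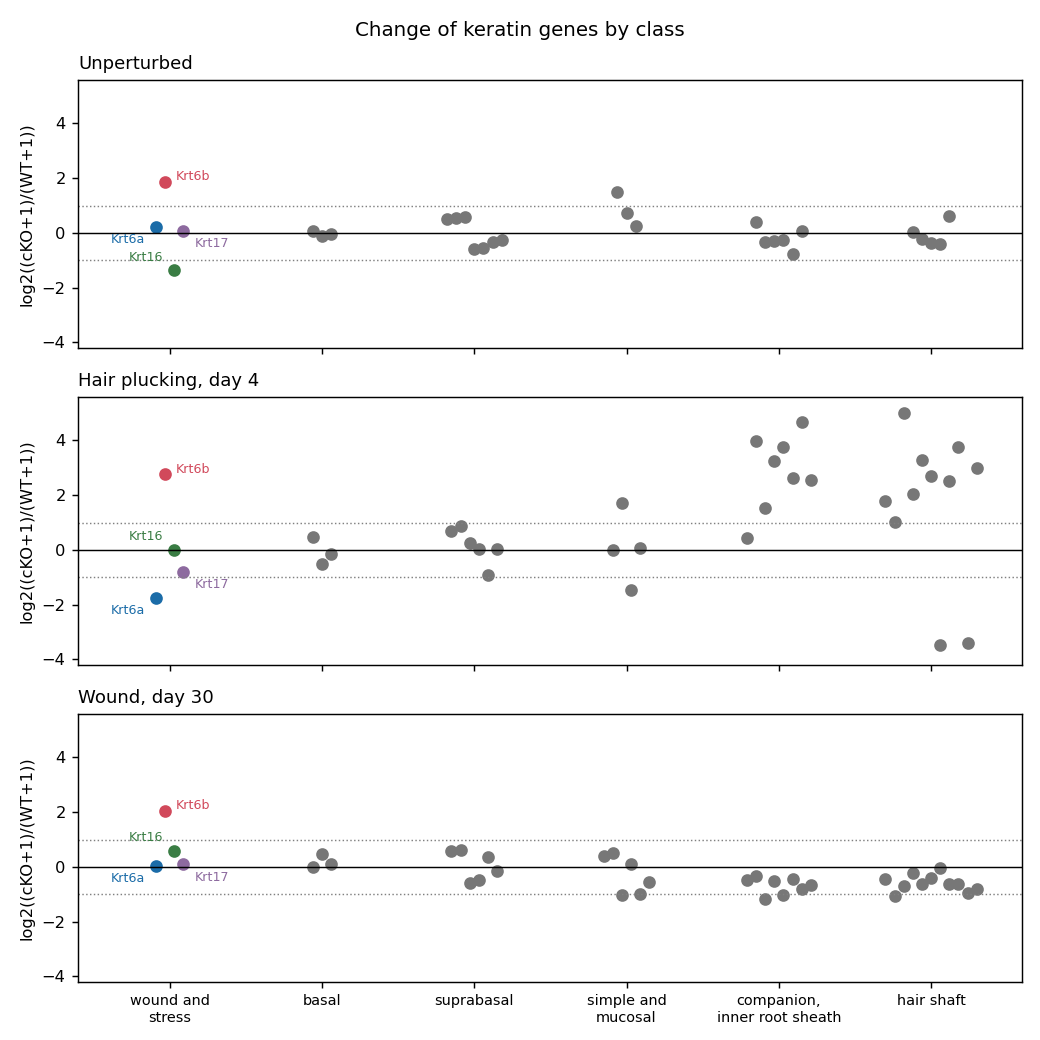
Log2 ratio of JunB cKO over wild type with a pseudocount of 1 FPKM (y axis) for keratins with 1 FPKM or more in one or both genotypes, grouped by class (x axis), in the 3 tables. Each point is 1 gene, the 4 members are coloured and named, and dotted lines mark 2-fold. Hair follicle keratins lie mostly above the upper line after plucking (medians 2.94 and 2.52) and below 0 in wounds (medians -0.59 and -0.64), while Krt6b lies above the upper line in all 3 panels.

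Markers of several other cell types also differed between the plucked samples, which hold 1 library per genotype. All 5 skeletal muscle markers were lower in plucked JunB cKO skin (sum 242 FPKM in wild type, 31.1 in JunB cKO), as were 4 of 6 leukocyte markers (89.0 and 40.1) and 3 of 6 fibroblast markers (5109 and 1856). None of these lists had a marker past 2-fold in the other comparisons. The part of such differences in the plucked levels of Krt6a, Krt6b and Krt17 was not tested. In bulk RNA of this kind, fewer keratinocytes that express a keratin and less of its RNA per cell cannot be told apart. Relative to the mean log2 ratio of Krt5 and Krt14, which was -0.03 in plucked skin, the direction of each of these 3 genes was as given above. That mean joins opposite differences, 0.46 for Krt5 and -0.52 for Krt14, and does not show that keratinocyte content was equal.

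Other genes of activated keratinocytes, in a list that holds none of the 4 keratins, went past 2-fold in both directions in every comparison. Of 22 such genes with 1 FPKM or more in each comparison, 8 were higher and 2 lower in unperturbed JunB cKO keratinocytes, 8 higher and 4 lower in plucked skin, and 8 higher and 4 lower in wounds, with medians of 0.31, 0.19 and 0.49. Over all loci, the shares higher and lower were 15.4% and 1.42%, 18.4% and 16.0%, and 5.68% and 5.19% in these comparisons. S100a9, which encodes a subunit of the antimicrobial protein calprotectin, was higher along with Krt6b in each, with 2.88 FPKM in wild type against 11.2 in JunB cKO for unperturbed keratinocytes, 2.56 and 250 for plucked skin and 10.9 and 77.5 for wounds. Its partner S100a8 was listed at 0 in plucked wild type skin and at 152 in plucked JunB cKO skin, and read 36.7 and 139 in wounds. The iron-binding protein gene Lcn2 read 2.32 and 13.1 in plucked skin and 2.70 and 12.4 in wounds, and Plaur, the urokinase receptor gene, 3.56 and 16.3 in plucked skin. In wounds Plaur read 4.01 and 2.33, the direction opposite to that of Krt6b.

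The genes of this list that were lower included some of the cornified envelope, the protein shell of terminally differentiated keratinocytes. Sprr1b, a precursor of this envelope, read 33.8 and 13.0 FPKM in unperturbed keratinocytes, where Krt16 was lower as well. In wounds, Tgm3, which crosslinks the envelope, read 33.3 and 12.7. S100a7a, a further S100 gene, read 67.6 and 32.3 there and Ivl, encoding involucrin, 139 and 65.7, although both lie outside the naming rule and were chosen after their values were seen. Envelope genes of the list went both ways. In unperturbed keratinocytes Sprr2b (0 and 1.21 FPKM), Sprr2d (0.616 and 2.51) and Sprr3 (0 and 1.18) were higher at low values, and Sprr2g (9.06 and 3.12) lower. In plucked skin Sprr1b (17.7 and 23.7) and Ivl (144 and 180) read higher in JunB cKO within 2-fold, and Sprr1a (258 and 113) was lower.

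Few factors known to act on these keratins were past 2-fold outside plucked skin, which was also the comparison with the most loci past 2-fold. Among the 7 Jun and Fos genes only Junb itself was past 2-fold in unperturbed keratinocytes and in wounds. In plucked skin Junb (40.8 and 11.7), Jund (30.3 and 13.0) and Fosb (2.54 and 0.397) were lower and Fos (3.38 and 8.97 FPKM) was higher in JunB cKO. Among ligands of the EGF receptor, which raises Krt6 and Krt16 in culture, none was past 2-fold in unperturbed keratinocytes or wounds, whereas Epgn (4.16 and 13.4) and Areg (2.12 and 5.28) were higher and Egf (1.73 and 0.335) lower after plucking. Of 20 or 21 other regulators, such as Nfe2l2, Stat3 and Gli2, 1 was higher and 0 lower in unperturbed keratinocytes, 3 higher and 2 lower in plucked skin, and 1 higher and 1 lower in wounds. Over all loci, the shares higher and lower were 15.4% and 1.42%, 18.4% and 16.0%, and 5.68% and 5.19%. The counts of these other regulators did not exceed those shares in any comparison. Il1a, a keratinocyte alarm cytokine, read 6.06 and 15.4 FPKM after plucking, when the Hedgehog mediator Gli2 read 16.7 and 6.77. Gli1, a second mediator of that pathway, went the other way in plucked skin, with 1.24 and 5.38 FPKM. Il1b read 4.25 and 13.7 in wounds, but 6.43 in plucked wild type skin and was listed at 0 in plucked JunB cKO skin. The median of this list stayed between -0.28 and 0.15.

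Most genes whose proteins anchor or bind keratin filaments were within 2-fold. Of 12 such genes, 1 was higher in unperturbed JunB cKO keratinocytes, namely Flg, which bundles keratin filaments in cornified cells, with 11.3 and 46.1 FPKM. In plucked skin 1, Pkp2, which had 1.60 FPKM in wild type and was at 0 in JunB cKO, was lower, and in wounds 0 of 12 were past the limit. The desmosomal plaque gene Dsp read 1115 and 891 FPKM, 1874 and 1480, and 1027 and 822. Genes of cell division, which accompany the hyperproliferation these keratins are used to mark, had medians of 0.28 in unperturbed, 0.63 in plucked and -0.35 in wounded samples, with 1 of 10 higher and 1 lower in plucked skin and 0 elsewhere.

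Finally, the pattern of each keratin over the 6 values was compared with that of 7168 genes found in all tables with 10 FPKM or more in at least 1 value and a range of at least 1 on the log2 scale. Krt6a and Krt6b, although near-identical in sequence, had a Pearson correlation of log2(FPKM + 1) of 0.235, Krt6a and Krt16 of 0.444, and Krt6b and Krt16 of 0.347. The genes most like Krt6a were 1110059E24Rik (0.997), Klk10 (0.997), Cd209d (0.996), Il16 (0.996) and Rps6ka3 (0.995). Klk10, a kallikrein-related peptidase, read 8.77 and 9.91 FPKM in unperturbed, 62.3 and 26.2 in plucked and 32.7 and 32.0 in wounded wild type and JunB cKO samples.

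The genes nearest in pattern to Krt6b were Thop1 (0.968), Dclre1b (0.963), Gsdmc (0.958), Ces2g (0.956) and Slc37a2 (0.954). Gsdmc, a gasdermin gene, read 2.36 and 3.49 FPKM in unperturbed, 4.55 and 10.3 in plucked and 1.94 and 6.33 in wounded samples, so that its differences were in the direction of Krt6b but smaller. For Krt16 they were Acsbg1 (0.964), Serpina3b (0.953), Ppip5k1 (0.949), Serpina3j (0.948) and Acacb (0.944). Acsbg1, an acyl-CoA synthetase gene, read 103.5 and 53.4 FPKM, 212 and 180, and 78.8 and 128. Krt17 varied by less than 1 on the log2 scale and was left out. Each correlation rests on 6 values, which form 3 pairs that share a table and its normalisation, and describes these samples alone.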

How the data were processed

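RNA-seq was performed on pooled, rRNA-depleted RNA as stranded single-end reads of 75 bases. The authors trimmed the reads, aligned them to GRCm38 (mm10) with TopHat and HISAT2 and ran Cufflinks and Cuffdiff. The FPKM values deposited by the authors, 1 per genotype and gene locus in each of 3 tables, were used as they stand. The deposited fold changes, p-values and q-values of the authors' own comparison were not used. The condition of the plucked and wound tables is given by the names of the tables, and the genotype by their columns and the labels.

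Where loci shared a symbol, the most highly expressed one over both genotypes was kept. Differences were expressed as log2((cKO + 1)/(WT + 1)) and called from 2-fold, and the background comprised loci at 1 FPKM or more in one or both genotypes. No test was run and no p-value is given, since each table holds 1 value per genotype. The reads behind a value were estimated from low FPKM values of single-exon receptor genes, which fall on multiples of 1 read once the effective transcript length is taken into account. This rested on 46 and 1000 loci in unperturbed, 6 and 18 in plucked and 87 and 31 in wounded wild type and JunB cKO samples, respectively. It has the fewest loci in the plucked pair, with 1 and 3 of them at 1 read, so that the plucked read numbers and intervals are approximate. It is also approximate in wounds, where 72 of 87 and 24 of 31 values lay within 0.1 of whole reads. Intervals of folds and of shares are exact (Clopper-Pearson) at 95% and cover counting error only.

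Sequences, gene positions and 75-base windows were taken from the GENCODE M21 transcripts. None of the 4 keratins was matched in the RefSeq promoter table used here, so that the planned motif search was not run, nor was the comparison of proteins. The members and gene lists were chosen with earlier results of these data known. Named were the 4 keratins, the keratin, Jun and Fos and EGF receptor ligand genes that bear on a result, from other lists up to 4 genes past 2-fold with an FPKM of at least 10, and the 5 genes most like each keratin. Pkp2, Dsp, Gli1, Ivl, Sprr1a, Sprr2b, Sprr2d, Sprr2g and Sprr3, and Plaur, Il1b and Sprr1b outside the comparison that named them, were given after their values were seen. Scripts were tested on simulated data. Alternatives were pseudocounts of 0.1 and 0.01, no or a higher minimum FPKM, 2 kinds of centring, subtraction of the receptor background, summed loci, status, a 1.5-fold limit and the sum of Krt6a and Krt6b. Python 3.11.15 was used with pandas 2.3.3, numpy 2.4.6, scipy 1.17.1, Biopython 1.88 and matplotlib 3.10.9.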

Additional observations from a re-analysis of the deposited data

Results flagged for a closer look

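The genotype difference of 3 keratins pointed in opposite directions in 2 of the conditions, and because each condition has 1 value per genotype, none of these differences between conditions was tested. Krt6a was slightly higher in unperturbed JunB cKO keratinocytes and lower in plucked JunB cKO skin, and the log2 ratios were 1.98 apart. Krt16 was lower in unperturbed JunB cKO keratinocytes and higher in JunB cKO wounds, with log2 ratios 1.94 apart. Krt17 was lower in plucked JunB cKO skin and slightly higher in JunB cKO wounds, where it was lower relative to Krt5 and Krt14, with log2 ratios 0.889 apart.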

How the results depend on the processing

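The direction and the side of the 2-fold limit of Krt6b held under every alternative but 1 in each condition, and the same is true of Krt6a after plucking. That alternative was the sum of Krt6a and Krt6b, which by its construction joins both genes, with log2 ratios of 0.58 in unperturbed, -0.89 in plucked and 0.21 in wounded samples and thus a reversal for Krt6b in plucked skin. Otherwise Krt6b ranged from 1.78 to 2.31, from 2.75 to 2.91 and from 1.81 to 2.33, Krt6a after plucking from -1.77 to -1.73 and Krt16 in unperturbed keratinocytes from -1.38 to -1.19. In wounds, Krt6b was 2.29 and 2.32 with pseudocounts of 0.1 and 0.01, 2.33 with none (chosen after seeing the data) and 1.81 relative to Krt5 and Krt14, whose mean log2 ratio was 0.23 there. On the latter scale Krt6a (-0.19) and Krt17 (-0.14) changed sign in wounds. Centring moved the unperturbed values by 0.15, the median of loci at 1 FPKM or more in both columns being -0.15.

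Counts of loci moved more. For unperturbed keratinocytes, 104 were higher and 117 lower at a minimum FPKM of 10, 940 and 432 after subtraction of the receptor background, and the lower ones were 378 and 399 with pseudocounts of 0.1 and 0.01 and 1057 at 1.5-fold. For plucked skin, 1186 and 1107 remained at the higher minimum and 4707 and 4259 at 1.5-fold. For wounds, the higher loci were 1606, 1670, 360, 662 and 2311 with pseudocounts of 0.1 and 0.01, the higher minimum, relative to Krt5 and Krt14 and at 1.5-fold, and the lower ones 1394, 292 and 1913 with a pseudocount of 0.01, the higher minimum and at 1.5-fold. The cause of these shifts was not tested.

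No paired analysis was possible because the wound table holds 1 value per genotype over both libraries, so the fits without replicate 1 or 2 and with a replicate block were not run. Depth limits Krt6b in unperturbed keratinocytes most.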
